A study of Sus scrofa with 11 samples.

Results

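IRX4, TBX5 and RXRG are 3 transcription factor genes of the heart, found by gene symbol among the 16319 genes of the expression table and followed over 10 days of slice culture. They were chosen by their measured FPKM levels in these same libraries, which were already known to fall over the days, so every level and difference given for these 3 genes describes that choice and carries no test. The 11 RNA libraries were made from heart slices of wild-type (WT) Yorkshire pigs, 3 months of age. They comprise 3 libraries labelled day 0 (D0) and 8 from stimulated culture (Stim), namely 2 of day 2, 3 of day 6 and 3 of day 10. The labels leave out the heart chamber, the nature of the stimulation and the animal behind each replicate, so p-values measure only the spread between these samples. The samples used here hold no cultured group without stimulation, so culture and stimulation cannot be told apart.

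IRX4 (ENSSSCG00000017112) encodes an Iroquois homeobox protein that, in mouse and chick hearts, marks ventricular muscle and holds down atrial genes there. TBX5 (ENSSSCG00000009867) encodes a T-box factor that works with GATA4 and NKX2-5 on chamber and conduction genes, and its loss of function causes Holt-Oram syndrome in humans. RXRG (ENSSSCG00000006328) encodes retinoid X receptor gamma, a nuclear receptor enriched in striated muscle. RXR proteins bind DNA as partners of the retinoic acid, thyroid hormone, vitamin D, liver X and peroxisome proliferator-activated receptors.

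Levels are in FPKM, which are fragment counts divided by gene length and by the size of the library. The reads behind the FPKM values, recovered from their steps, numbered 11695060 to 16773577 per library. The 9 tested cardiomyocyte genes, among them TNNT2, ACTC1 and MYH6, summed to 75370 to 165300 FPKM at day 0, and 0 of them were at 0 there. D0 replicate 2 and Stim D2 replicate 1 stood apart, with 4536 and 4017 genes at 0 against 1310 to 2331 in the other libraries. Results for the 3 factors, the cardiomyocyte markers, core factors, RXR partners, reported TBX5 targets and some single genes are given with and without both. Counts of the other lists are given with both only, although they also rest on these libraries. The fit of log2(FPKM + 1) covered the 12625 genes that averaged 1 FPKM or more, and there the median gene was higher by 0.51, 0.88 and 0.51 (log2) at days 2, 6 and 10 than at day 0. Called genes (limma adjusted p under 0.05) split into 727 higher and 397 lower on day 2, 1206 and 222 on day 6, and 1504 and 787 on day 10. With the libraries scaled by median ratio they split into 337 higher and 815 lower, 269 and 595, and 911 and 1244. All 3 factors passed the filter on low values.

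All 3 genes were highest at day 0, and each had its lowest mean at day 10. Day 2 and day 10 libraries lay below every day 0 library for each gene, but the days between differed. IRX4 at day 6 overlapped its day 0 levels in FPKM, TBX5 was partly back in 1 of 3 libraries, and RXRG stayed low throughout. Scaling moved the day 6 values, and the log2 difference of IRX4 from day 0, -0.47 in FPKM, was -1.51 after median ratio scaling and -1.43 after quantile normalization, while that of TBX5 (-1.89) was -2.90 and -2.79. The means followed the same order in each gene, with day 0 first, then day 6, day 2 and day 10.

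IRX4 stood at 13.3, 8.19 and 9.88 FPKM in the day 0 libraries and at 0 and 1.15 FPKM at day 2. It stood at 7.77, 5.38 and 8.71 FPKM at day 6, and at 0.310, 0 and 0.0397 FPKM at day 10. Day 6 thus overlapped day 0, while day 2 and day 10 lay apart from both and overlapped each other. The values rest on 160 to 287 reads per library at day 0, on 0 and 23 reads at day 2, on 104 to 218 reads at day 6 and on 7, 0 and 1 reads at day 10. For the libraries with 0 reads, a floor of 3 reads allows a level of up to 0.119 FPKM in Stim D2 replicate 1 and 0.165 FPKM in Stim D10 replicate 2. Such floors cover counting error only. The mean was 10.5 ± 2.62 FPKM at day 0 (SD, n = 3), 0.577 ± 0.816 FPKM at day 2 (SD, n = 2), 7.29 ± 1.72 FPKM at day 6 and 0.117 ± 0.169 FPKM at day 10 (SD, n = 3 each). Relative to the day 0 mean, these were 5.51% on day 2, 69.7% on day 6 and 1.11% on day 10. The fitted log2 difference from day 0 was -2.94 ± 0.53 (SE) at day 2, -0.47 ± 0.47 at day 6 and -3.35 ± 0.47 at day 10, on a scale that understates changes of low genes. Against day 2, day 6 was at 2.48 ± 0.53 (log2), and against day 6, day 10 was at -2.88 ± 0.47, with no overlap of libraries in either.

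TBX5 stood at 23.4, 15.2 and 24.6 FPKM in the day 0 libraries and at 1.81 and 2.68 FPKM at day 2. It stood at 1.91, 4.0 and 12.8 FPKM at day 6, and at 0.613, 0.929 and 1.45 FPKM at day 10. Every cultured library lay below every day 0 library, and Stim D6 replicate 3 came closest. Day 6 overlapped the day 2 values at its low end and lay above all day 10 values. Means were 21.1 ± 5.14 FPKM at day 0 (SD, n = 3), 2.25 ± 0.617 FPKM at day 2 (SD, n = 2), 6.24 ± 5.79 FPKM at day 6 and 0.999 ± 0.425 FPKM at day 10 (SD, n = 3 each). Relative to day 0, they were 10.7% on day 2, 29.6% on day 6 and 4.74% on day 10. The log2 difference from day 0 was -2.75 ± 0.65 at day 2, -1.89 ± 0.58 at day 6 and -3.46 ± 0.58 at day 10. Unlike IRX4, with an SD of 1.72 FPKM at day 6, TBX5 had an SD at day 6 close to its mean.

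RXRG stood at 49.7, 117 and 91.7 FPKM in the day 0 libraries and at 1.83 and 2.24 FPKM at day 2. It stood at 2.02, 11.4 and 0.969 FPKM at day 6, and at 0.170, 2.75 and 1.32 FPKM at day 10. No cultured library came near day 0, and the 3 cultured days overlapped one another. Means were 86.3 ± 34.2 FPKM at day 0 (SD, n = 3), 2.04 ± 0.294 FPKM at day 2 (SD, n = 2), 4.79 ± 5.73 FPKM at day 6 and 1.41 ± 1.29 FPKM at day 10 (SD, n = 3 each). These were 2.36% of day 0 on day 2, 5.55% on day 6 and 1.64% on day 10. The log2 difference from day 0 was -4.76 ± 0.78 on day 2, -4.30 ± 0.70 on day 6 and -5.25 ± 0.70 on day 10. The day 6 mean rests on Stim D6 replicate 2, and without that library day 6 lay 0.31 (log2) below day 2 instead of 0.47 ± 0.78 above it.

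**Figure D1:**
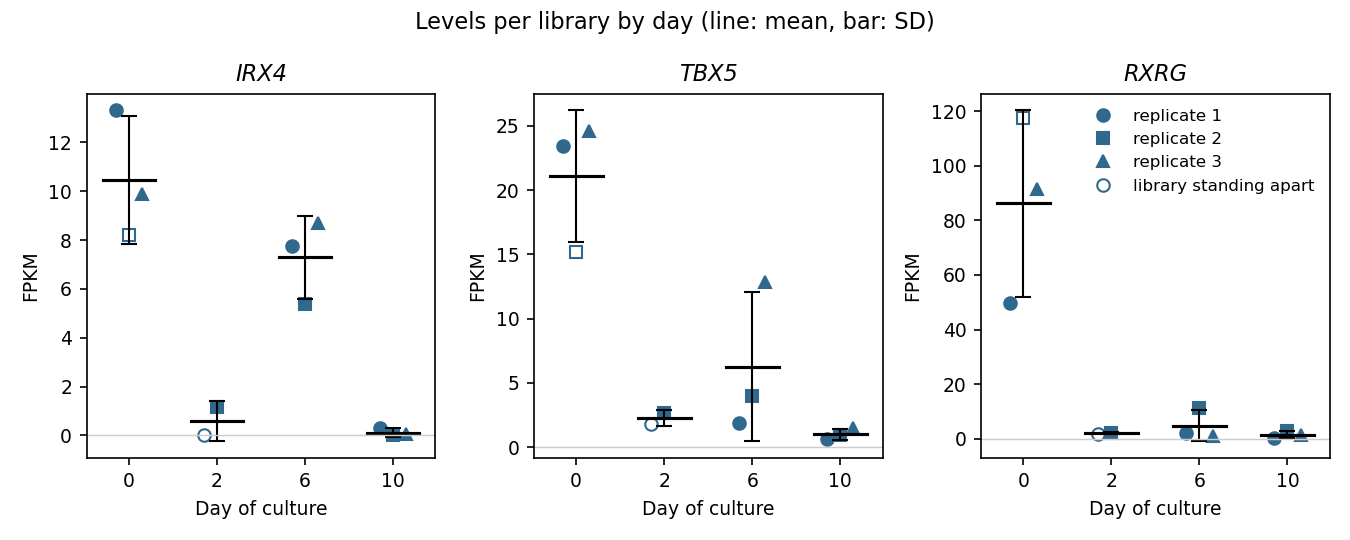
FPKM (y axes, linear, each with its own range) of IRX4, TBX5 and RXRG by day of culture (x axes), with a marker shape per replicate number, the mean as a line and the SD as a bar. Open markers are D0 replicate 2 and Stim D2 replicate 1. IRX4 at day 6 (5.38 to 8.71 FPKM) reaches the lowest day 0 library (8.19 FPKM), while every cultured RXRG value is at or below 11.4 FPKM against at least 49.7 FPKM at day 0.

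Per length of gene, RXRG was the most abundant of the 3 in every day 0 library, followed by TBX5 and then IRX4. This order did not hold at day 6. IRX4 led in Stim D6 replicate 1 (7.77 FPKM), RXRG in replicate 2 (11.4 FPKM) and TBX5 in replicate 3 (12.8 FPKM). The library with most RXRG at day 6 thus had the least IRX4, and the library with most TBX5 had the least RXRG. Over all 11 libraries, Pearson's r of log2(FPKM + 1) was 0.84 between IRX4 and TBX5, 0.66 between IRX4 and RXRG and 0.81 between TBX5 and RXRG. Over the 8 cultured libraries alone it was 0.74, 0.30 and 0.20 in the same order. The libraries share their days, so these values are descriptions.

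In the fit over all genes, 3 of the 3 factors were called lower at day 2, when 8.9% of all genes tested were called and 3.14% were called lower. At day 6 it was 1 of 3 (RXRG), with 11.3% of genes called and 1.76% called lower, and at day 10 it was 3 of 3, with 18.1% called and 6.23% called lower. The genes were chosen for these differences, so the counts support nothing. Libraries did not overlap with day 0 for 3 of 3 at day 2, 2 of 3 at day 6 and 3 of 3 at day 10, while 9.18%, 6.76% and 9.28% of all genes lay wholly below day 0 at these days. Day 6 against day 2 had 0 called genes over the whole table (0.0%, limma), although 511 genes had an unadjusted p under 0.05, and limma voom on the recovered reads also called 0. IRX4 at day 6 lay wholly above day 2, as did 16.0% of all genes. Day 10 against day 6 had 4.9% of genes called and 2.99% called lower, IRX4 among them. IRX4 and TBX5 lay wholly below day 6 at day 10, as did 27.3% of all genes. Without D0 replicate 2 and Stim D2 replicate 1, the log2 differences from day 0 were -2.53, -0.61 and -3.49 for IRX4 at days 2, 6 and 10, -2.77, -2.10 and -3.67 for TBX5, and -4.40, -4.03 and -4.98 for RXRG. The percentages of day 0 were then 9.95%, 62.8% and 1.00% for IRX4, 11.2%, 26.0% and 4.16% for TBX5, and 3.17%, 6.77% and 2.00% for RXRG.

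Genes of the heart muscle cell moved with the 3 factors. Of 9 tested cardiomyocyte marker genes, 7 fell at day 2, 3 at day 6 and 9 at day 10, with median log2 fold changes of -3.84, -2.36 and -9.71 against 0.51, 0.88 and 0.51 over all genes. Over all genes, 3.14%, 1.76% and 6.23% were called lower at days 2, 6 and 10. Without D0 replicate 2 and Stim D2 replicate 1, 6 fell at day 6 and 9 at day 10, with 5.03% and 12.5% of all genes called lower. Day 2 then held 1 library and is not counted. The alpha-actinin gene ACTN2 (ENSSSCG00000010144), a Z-disc protein of the sarcomere, averaged 682.7 ± 244 FPKM at day 0, 45.0 ± 18.9 FPKM at day 2, 235.6 ± 77.1 FPKM at day 6 and 0.475 ± 0.141 FPKM at day 10. Its log2 fold change was -3.88 ± 0.51 at day 2 (limma adjusted p = 0.001539), -1.52 ± 0.46 at day 6 (limma adjusted p = 0.05021) and -8.79 ± 0.46 at day 10 (limma adjusted p = 2.416e-07). Cardiac actin ACTC1, myosin-binding protein MYBPC3 and alpha myosin MYH6 fell at all 3 days, with log2 fold changes of -10.78 ± 0.56, -9.71 ± 0.63 and -12.44 ± 0.61 at day 10 (limma adjusted p = 2.416e-07, 1.908e-06 and 2.214e-07). The day 6 call ended without Stim D6 replicate 1 for ACTC1 (range -3.69 to -2.97 with each library left out), and without D0 replicate 1 or 3 or Stim D6 replicate 1 or 3 for MYBPC3 (-3.14 to -2.18) and MYH6 (-2.95 to -2.03). With only day 0 and day 2 in the fit, the day 2 calls of ACTN2, ACTC1, MYBPC3 and MYH6 ended (limma adjusted p = 0.07669, 0.08813, 0.08549 and 0.1353). With only day 0 and day 6 in the fit, MYBPC3 and MYH6 did not pass at day 6 (limma adjusted p = 0.05369 and 0.07127). The day 6 call of MYH6 also ended with quantile normalization (-1.48, limma adjusted p = 0.1101) and with no filter on low values (limma adjusted p = 0.05267). Summed over the 9 markers, levels were 2525 to 16430 FPKM at day 2, 13400 to 30600 FPKM at day 6 and 24.0 to 165 FPKM at day 10, and 0 of the 9 were at 0 in all libraries of a day. In slices, which are bulk samples, fewer cells of a type and less RNA per cell cannot be told apart, and the part of muscle cell content in the levels of the 3 factors was not tested.

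Levels relative to day 0 were set beside those of the muscle genes, with no test of the difference. Median marker levels were 2.80% to 8.54% of day 0 in the day 2 libraries. They were 12.1% to 29.1% at day 6 and 0.0214% to 0.0852% at day 10. The means of IRX4 and, narrowly, TBX5 lay above them at day 6, as did the means of all 3 factors at day 10. IRX4 cannot be ranked at day 10, where it had 7, 0 and 1 reads in replicates 1, 2 and 3. It was at 2.96%, 0% and 0.38% of day 0 there, below the marker median of 0.063% in replicate 2. By library, TBX5 at day 6 was at 9.04%, 19.0% and 60.8% of day 0 in replicates 1, 2 and 3. Marker medians there were 12.1%, 29.1% and 13.0%, so TBX5 lay above them in replicate 3 only. At day 2 the TBX5 mean, at 10.7%, also lay above the marker medians. Per 1000 FPKM of ACTN2 in the same library, a ratio chosen after the values were seen, IRX4 amounted to 12.8 to 20.2 FPKM at day 0, 0 to 36.5 at day 2, 19.9 to 52.8 at day 6 and 0 to 489 at day 10. The lowest IRX4 ratio at day 6 lay within the day 0 range. TBX5 amounted to 27.0 to 37.4 at day 0, 31.0 to 84.9 at day 2, 13.0 to 44.3 at day 6 and 969 to 4025 at day 10. RXRG amounted to 57.3 to 289 at day 0, 31.3 to 70.9 at day 2, 3.35 to 42.1 at day 6 and 268 to 6383 at day 10. At day 6 the RXRG ratio therefore lay below day 0 in every library, the TBX5 ratio spanned day 0, and the IRX4 ratio lay within or above it. At day 10 the ratios divide by ACTN2 levels under 1 FPKM, and IRX4 itself rests there on at most 7 reads.

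**Figure D2:**
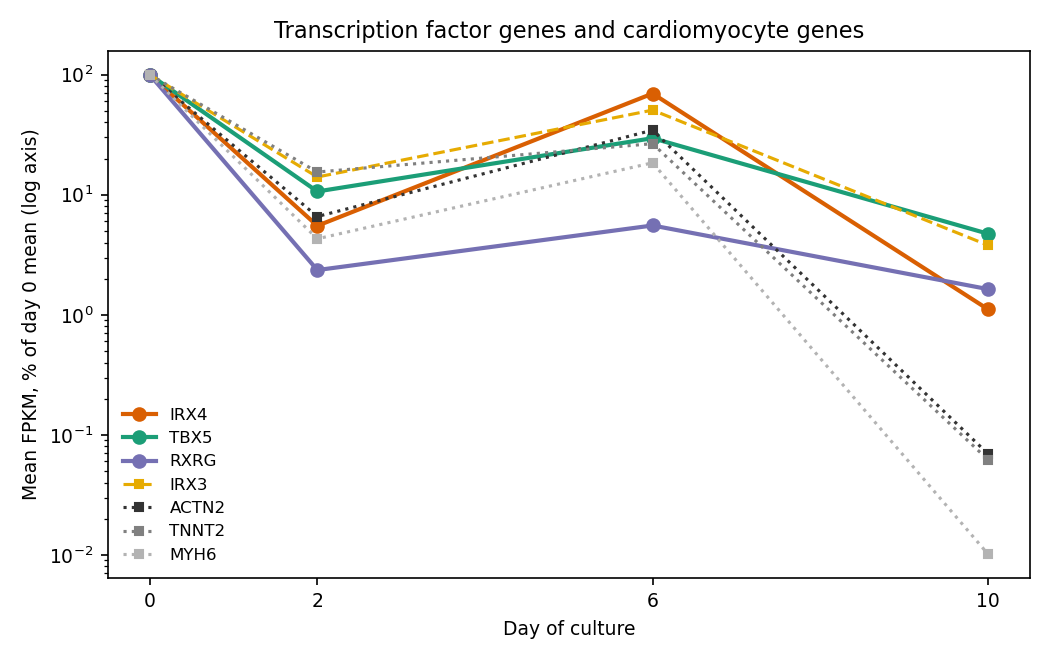
Mean FPKM as a percentage of the day 0 mean (y axis, log scale) by day of culture (x axis) for the 3 factors, their relative IRX3 and the muscle genes ACTN2, TNNT2 and MYH6 (n = 3, 2, 3 and 3 libraries at days 0, 2, 6 and 10). IRX4 lies at 69.7% at day 6, RXRG at 5.55%, and at day 10 the factors lie at 1.11% to 4.74% while the muscle genes lie lower. The IRX4 value at day 10 rests on at most 7 reads per library.

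Among other regulators of heart muscle genes, GATA6 and ESRRA fell at days 2 and 10, and ANKRD1 and PPARGC1A fell at day 10. Of 16 tested core cardiac transcription factors and coactivators (26 listed), 2 fell at day 2, 0 at day 6 and 4 at day 10, and 0 rose at any of the 3 days. Their median log2 fold changes were -1.19, 0.11 and -0.88. The share of all genes called lower was 3.14%, 1.76% and 6.23%. These counts hinge on D0 replicate 2, where the 16 genes had a median of 8.56% of their day 0 mean, although IRX4, TBX5 and RXRG kept 8.19, 15.2 and 117 FPKM there. Without D0 replicate 2 and Stim D2 replicate 1, 4 of the 16 fell at day 6 and 12 at day 10. Of all genes, 5.03% and 12.5% were then called lower at days 6 and 10. Day 2 held 1 library in that setting and is not counted. Without D0 replicate 2 alone, 6 fell on day 2, 1 on day 6 and 8 on day 10. The day 2 count was 0 without any 1 of the other 10 libraries, and the day 10 count was 2 without D0 replicate 1, D0 replicate 3, Stim D10 replicate 1 or Stim D10 replicate 2. With quantile normalization the counts were 5, 4 and 9, and with median ratio scaling 3, 2 and 6.

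GATA6 (ENSSSCG00000003702), a zinc finger factor of heart muscle, averaged 45.2 ± 31.9 FPKM at day 0, 4.93 ± 3.23 at day 2, 16.6 ± 6.53 at day 6 and 5.05 ± 3.41 at day 10. Its log2 fold change was -2.73 ± 0.78 at day 2 (limma adjusted p = 0.04584) and -2.73 ± 0.70 at day 10 (limma adjusted p = 0.01667). The day 2 call ended without any 1 library other than D0 replicate 2 (-3.49 to -2.14), and the day 10 call without D0 replicate 1 or 3 or Stim D10 replicate 1 or 2 (-3.49 to -2.20). At day 6, GATA6 passed as lower with median ratio scaling (-2.21), with quantile normalization (-2.07) and without D0 replicate 2 and Stim D2 replicate 1 (-1.88). ESRRA (ENSSSCG00000013028), an orphan nuclear receptor of mitochondrial genes, averaged 136.7 ± 47.9 FPKM at day 0, 40.9 ± 10.2 at day 2, 76.7 ± 23.9 at day 6 and 20.6 ± 4.66 at day 10. Its fall was -1.68 ± 0.48 at day 2 (limma adjusted p = 0.04729), lost without any 1 of the 11 libraries (-1.93 to -1.42), and -2.64 ± 0.43 at day 10 (limma adjusted p = 0.001146). ANKRD1 (ENSSSCG00000010461), a stretch-responsive cofactor at the sarcomere and nucleus, had 1501 ± 1014, 1488 ± 1601 and 2139 ± 680 FPKM at days 0, 2 and 6 without a call, and 36.3 ± 45.8 FPKM at day 10 (-6.29 ± 1.11 from day 0, limma adjusted p = 0.001886). PPARGC1A, the coactivator PGC-1 alpha, completes the 4 genes lower at day 10 (-2.54 ± 0.74, limma adjusted p = 0.03217), named after its values were seen. Its call ended without D0 replicate 1 or 3 or any 1 Stim D10 library (-3.67 to -1.76).

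Other core factors of the panel did not pass the test over all 11 libraries, but several passed without D0 replicate 2 and Stim D2 replicate 1 or under another scaling. GATA4 (ENSSSCG00000022383), a partner of TBX5, averaged 26.1 ± 16.1 FPKM at day 0, 12.7 ± 11.8 at day 2, 28.9 ± 9.02 at day 6 and 19.6 ± 16.5 at day 10, with limma adjusted p of 0.4423, 0.7746 and 0.658. MEF2A, MEF2C and MEF2D, MADS-box factors of muscle, had limma adjusted p of at least 0.3194 in these comparisons, and the signs of MEF2A and MEF2C turn with D0 replicate 2, where they stood at 0.819 and 0.616 FPKM against 21.4 to 34.7 FPKM in the other day 0 libraries. Without D0 replicate 2 and Stim D2 replicate 1, all 3 passed as lower at day 10, MEF2A at -1.41, MEF2C at -1.91 and MEF2D at -1.56 (limma adjusted p = 0.02275, 0.01497 and 0.02214), and MEF2D also passed with median ratio scaling (-1.46) and quantile normalization (-1.36). TBX20, a T-box repressor and activator of adult heart muscle, averaged 16.9 ± 14.8 FPKM on day 0 and 1.28 ± 1.49 FPKM on day 10 (-2.21 ± 1.06, limma adjusted p = 0.167). It passed without D0 replicate 2 and Stim D2 replicate 1 (-3.70, limma adjusted p = 0.0004926) and with quantile normalization (-2.68, limma adjusted p = 0.02455). HEY2, a ventricular Notch target, averaged 21.2 ± 16.6 FPKM at day 0, 2.46 ± 3.03 at day 2, 8.63 ± 1.95 at day 6 and 18.5 ± 6.15 at day 10. Its smallest limma adjusted p was 0.0931, at day 2. Without the same 2 libraries HEY2 passed as lower at day 6 (-1.70, limma adjusted p = 0.01798). Day 2 then held 1 library, with HEY2 at -2.46 (log2) from day 0. HEY2 also passed as lower at days 2 and 6 with quantile normalization (-3.06 and -1.86) and at day 2 with median ratio scaling (-3.25). NKX2-5 and HAND2 had no match by symbol and were not analysed here.

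Within the gene families of IRX4 and TBX5, IRX3 fell at days 2 and 10. Of 7 tested T-box and Iroquois genes, 1 fell at day 2 (IRX3) and 0 changed at day 6. At day 10, 1 rose (TBX2) and 1 fell (IRX3). Medians were 0.00, 0.20 and -0.29 at days 2, 6 and 10. Over all genes, 3.14% were called lower at day 2, and 11.9% were called higher and 6.23% lower at day 10. With median ratio scaling TBX2 did not pass and the medians were -0.36, -0.45 and -0.37. IRX3 (ENSSSCG00000002831), an Iroquois factor of the ventricular conduction system in mice, stood at 31.2, 10.8 and 24.2 FPKM in the day 0 libraries, at 3.56 and 2.64 FPKM at day 2, at 12.3, 9.30 and 11.9 FPKM at day 6, and at 0.353, 0.925 and 1.24 FPKM at day 10. Day 6 overlapped day 0 and lay above all day 2 and day 10 libraries, as for IRX4. The log2 fold change was -2.38 ± 0.57 at day 2 (limma adjusted p = 0.02263), -0.81 ± 0.51 at day 6 (limma adjusted p = 0.2489) and -3.56 ± 0.51 at day 10 (limma adjusted p = 0.0004356). Under both other scalings, median ratio and quantile, IRX3 also passed as lower at day 6 (-1.88 and -1.80, limma adjusted p = 0.01782 and 0.009883). Day 10 was also lower than day 6 (-2.75 ± 0.51, limma adjusted p = 0.007349). The day 2 call ended without D0 replicate 1 or 3 or either Stim D2 library (-2.81 to -2.08), while the day 10 call held without each library. TBX2 (ENSSSCG00000027060), a repressor of chamber genes, averaged 32.7 ± 13.3 FPKM on day 10 and 7.59 ± 6.41 FPKM on day 0 (2.15 ± 0.68, limma adjusted p = 0.04402). That call ended without D0 replicate 2 or 3 or any 1 Stim D6 or Stim D10 library (1.66 to 2.72). TBX3, a repressor gene of the same branch as TBX2, averaged 6.42 ± 3.44 FPKM on day 10 and 2.98 ± 3.12 FPKM on day 0 (limma adjusted p = 0.2976). IRX5 had no match by symbol.

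**Figure D3:**
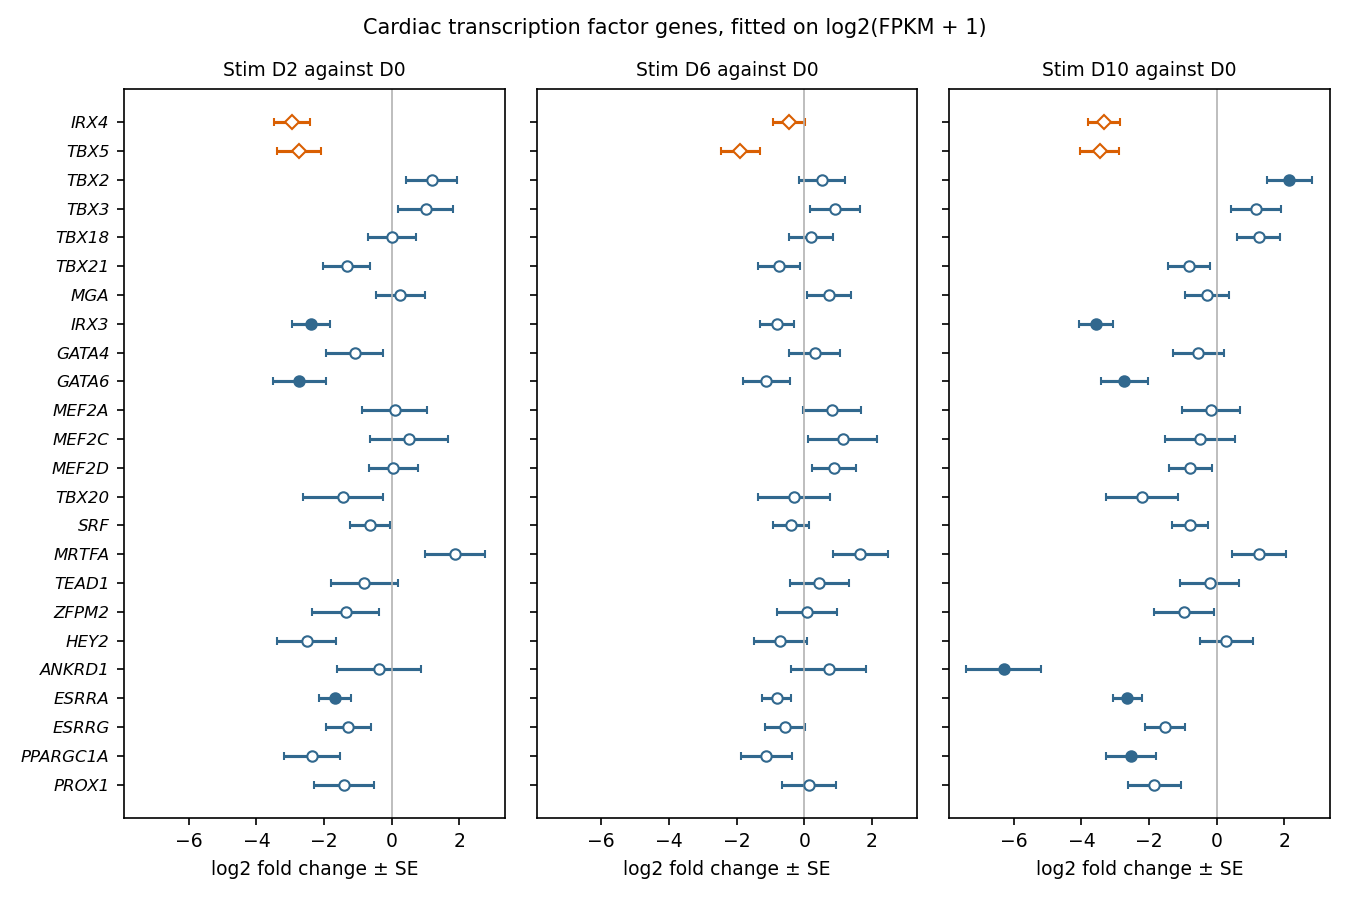
Log2 fold change of log2(FPKM + 1) with its SE (x axes) against day 0 at days 2, 6 and 10 for IRX4 and TBX5 (diamonds, no test), the T-box and Iroquois relatives and the 16 core cardiac factors (circles, filled where limma adjusted p was under 0.05). Filled circles are IRX3, GATA6 and ESRRA at day 2, none at day 6, and TBX2, IRX3, GATA6, ANKRD1, ESRRA and PPARGC1A at day 10.

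RXR partners and genes of retinoid handling that passed the test were higher than at day 0, although other scalings also called some RXR partners lower. Of 11 tested genes for RXRB and dimer partners, 0 changed at day 2, 1 rose at day 6 and 3 rose at day 10, with medians of 0.44, 0.49 and 0.25 against 0.51, 0.88 and 0.51 over all genes and with 5.76%, 9.55% and 11.9% of all genes called higher. With median ratio scaling 1 rose and 1 fell at day 10, the medians were -0.27, -0.42 and -0.40, and 7.22% of all genes were called higher at day 10. With quantile normalization 0 rose and 3 fell at day 6, and without D0 replicate 2 and Stim D2 replicate 1 it was 1 and 2 at day 6 and 3 and 1 at day 10. RXRB (ENSSSCG00000001474), the only other RXR gene matched, averaged 34.4 ± 7.15 FPKM at day 0, 48.9 ± 2.24 at day 2, 48.2 ± 5.77 at day 6 and 37.5 ± 6.83 at day 10, and its limma adjusted p was at least 0.3449. Its fold changes (0.51, 0.49 and 0.12) turn to -0.27, -0.64 and -0.60 with median ratio scaling. RXRB was thus below RXRG in every day 0 library and above it in every cultured one. RXRA and the thyroid hormone receptor gene THRB had no match by symbol and were not analysed here.

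RARA (ENSSSCG00000017475), retinoic acid receptor alpha, averaged 12.1 ± 4.55 FPKM at day 0, 39.2 ± 9.74 at day 2, 48.1 ± 3.32 at day 6 and 40.6 ± 19.5 at day 10. It rose by 1.97 ± 0.48 at day 6 (limma adjusted p = 0.02511) and 1.60 ± 0.48 at day 10 (limma adjusted p = 0.03383). The day 6 call ended without D0 replicate 3 or any 1 Stim D6 library (1.75 to 2.23), and the day 10 call without D0 replicate 2 or 3, Stim D10 replicate 2 or 3 or any 1 Stim D6 library (1.28 to 2.03). RARA was at 0.87 and 0.91 at days 6 and 10 after median ratio scaling (limma adjusted p = 0.2753 and 0.2166) and after quantile normalization at 1.28 and 1.08 (limma adjusted p = 0.05939 and 0.0776), so both calls ended. VDR (ENSSSCG00000020864), the vitamin D receptor, stood at 0.343, 0 and 0.185 FPKM at day 0, at 1.66 and 3.77 FPKM at day 2, at 0.872 to 2.31 FPKM at day 6 and at 4.73, 14.5 and 23.3 FPKM at day 10. Every cultured library was above every day 0 library, and the day 10 rise was 3.47 ± 0.56 (limma adjusted p = 0.001121). NR1H3, liver X receptor alpha, averaged 50.8 ± 14.0 FPKM on day 10 and 19.0 ± 8.77 FPKM on day 0 (1.43 ± 0.44, limma adjusted p = 0.03799), lost without D0 replicate 1 or 3 or any 1 Stim D6 or Stim D10 library (1.21 to 1.77), with median ratio scaling (0.71, limma adjusted p = 0.532) and with quantile normalization (1.01, limma adjusted p = 0.1414). PPARA, the receptor that drives fat oxidation genes in heart muscle, averaged 7.69 ± 7.07 FPKM at day 0, 0.390 ± 0.190 at day 2, 2.48 ± 0.916 at day 6 and 0.372 ± 0.319 at day 10, with a smallest limma adjusted p of 0.06319 at day 10. Without D0 replicate 2 and Stim D2 replicate 1, PPARA passed as lower at days 6 and 10 (-1.82 and -3.15, limma adjusted p = 0.01545 and 0.0001379). Day 2 then held 1 library, with PPARA at -2.98. PPARA also passed as lower at days 2, 6 and 10 with quantile normalization (-2.39, -1.77 and -2.43). With median ratio scaling it passed at days 2 and 10 (-2.39 and -2.41). RARB had a limma adjusted p of at least 0.4585 at all 3 days, but passed as lower at days 2 and 6 with quantile normalization (-1.49 and -1.66) and at day 6 without the same 2 libraries (-1.51).

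Of 10 tested retinoid handling genes, 1 rose at day 2, 1 at day 6 and 4 at day 10, and 0 fell, with medians of 0.52, -0.02 and 1.65, while 5.76%, 9.55% and 11.9% of all genes were called higher. With quantile normalization 1 fell at day 2 and 1 at day 6, while 5 rose at day 10. CRABP2 (ENSSSCG00000006472), which carries retinoic acid to the nucleus, stood at 0.489, 0 and 0.276 FPKM at day 0, at 4.04 and 29.1 FPKM at day 2, at 0.473, 7.54 and 0.561 FPKM at day 6 and at 33.9, 24.9 and 20.8 FPKM at day 10. It rose by 3.32 ± 0.85 at day 2 (limma adjusted p = 0.0307) and 4.45 ± 0.76 at day 10 (limma adjusted p = 0.001633), and its day 6 libraries overlapped day 0. The day 2 call ended without D0 replicate 1 or 3 or Stim D2 replicate 2 (2.03 to 4.60). RARRES1, a gene induced by retinoic acid, averaged 36.2 ± 22.4 FPKM on day 10 and 1.22 ± 0.972 FPKM on day 0 (3.97 ± 0.79, limma adjusted p = 0.004089). RBP4, the retinol carrier, averaged 3.07 ± 0.688 FPKM on day 10 and 0.0326 ± 0.0565 FPKM on day 0 (1.97 ± 0.37, limma adjusted p = 0.003124). The retinaldehyde dehydrogenase gene ALDH1A3 at day 10 (2.87 ± 0.69, limma adjusted p = 0.01264) and the retinoic acid hydroxylase gene CYP26B1 at day 6 (2.23 ± 0.65, limma adjusted p = 0.0463) complete the counts and were named after their values were seen. ALDH1A3 lost its call without Stim D10 replicate 3 (2.19 to 3.46). CYP26B1 lost its own without D0 replicate 2 or 3, Stim D6 replicate 1 or 3 or any 1 Stim D10 library (1.60 to 2.97).

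**Figure D4:**
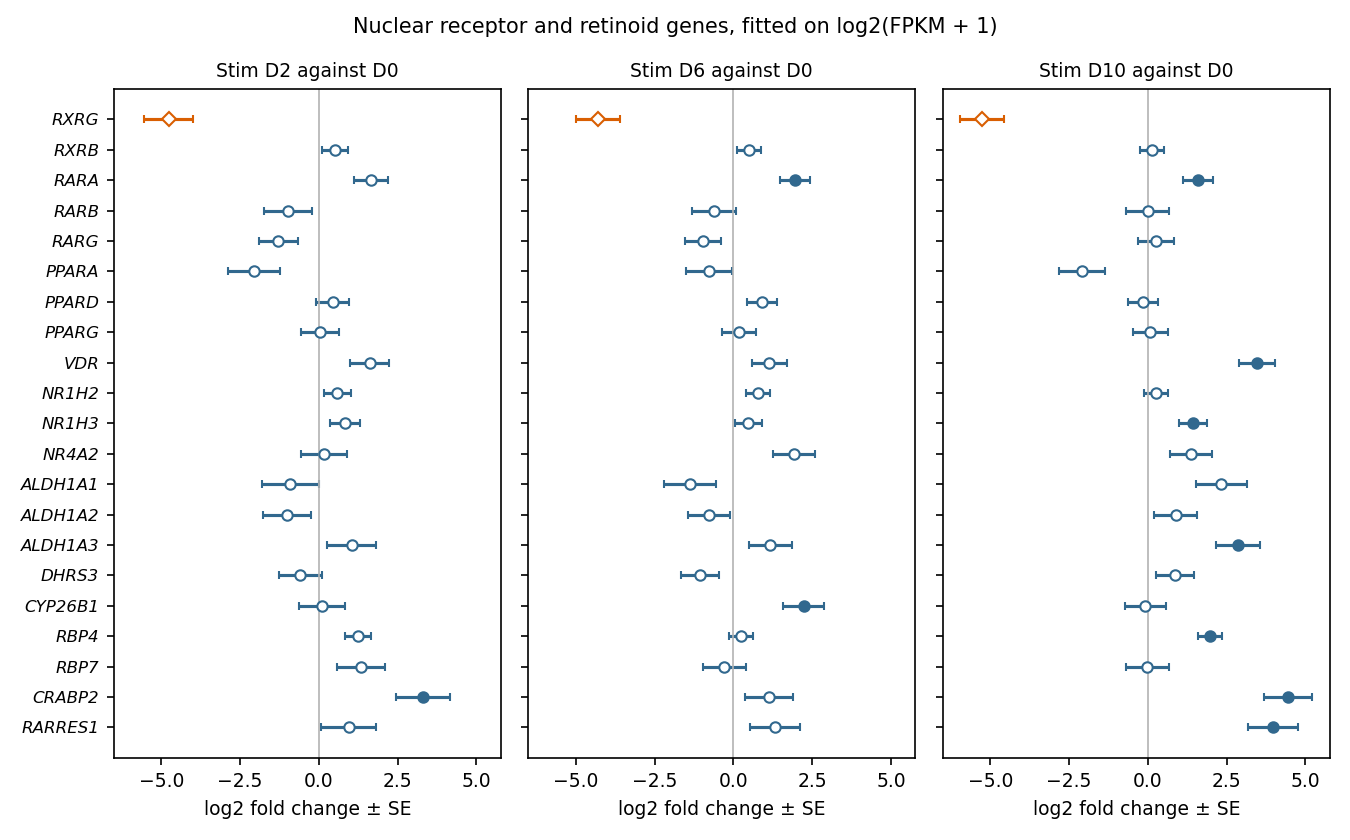
Log2 fold change of log2(FPKM + 1) with its SE (x axes) against day 0 at days 2, 6 and 10 for RXRG (diamond, no test), RXRB and RXR partner genes, and the retinoid handling genes reported here (circles, filled where limma adjusted p was under 0.05). RXRG lies between -5.25 and -4.30, while each filled circle lies above 0, with RARA, VDR, NR1H3, ALDH1A3, RBP4, CRABP2 and RARRES1 filled at day 10.

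Genes reported as TBX5 targets and genes of the chambers were few in the table. Of 4 tested reported targets, 0 changed at day 2, 1 rose at day 6 (ID2), and 1 rose (ID2) and 2 fell (RYR2 among them) at day 10, with medians of -1.26, 0.36 and -2.15. Over all genes, 9.55% were called higher at day 6, and 11.9% were called higher and 6.23% lower at day 10. Without D0 replicate 2 and Stim D2 replicate 1, 2 fell at day 6 and 3 at day 10, with 5.03% and 12.5% of all genes called lower. Day 2 then held 1 library and is not counted. ID2 (ENSSSCG00000008645), an inhibitor of helix-loop-helix factors that TBX5 and NKX2-5 activate in the mouse conduction system, averaged 7.07 ± 4.77 FPKM at day 0, 32.7 ± 0.166 at day 2, 52.6 ± 41.6 at day 6 and 60.9 ± 14.7 at day 10. Its rise was 2.61 ± 0.60 at day 6 (limma adjusted p = 0.02137), lost without Stim D6 replicate 1 or 2 (2.01 to 3.14), with median ratio scaling (1.58, limma adjusted p = 0.1371), quantile normalization (1.81, limma adjusted p = 0.06718), limma voom or the compared groups alone, and 3.09 ± 0.60 at day 10 (limma adjusted p = 0.003648). RYR2, the calcium release channel, averaged 0.241 ± 0.265 FPKM on day 10 and 67.8 ± 57.8 FPKM on day 0 (-4.50 ± 1.17, limma adjusted p = 0.0185). It stood at 1.02 FPKM in D0 replicate 2. RYR2 also passed as lower at day 2 with quantile normalization (-3.64, limma adjusted p = 0.02923). The RYR2 call ended without D0 replicate 1 or 3 or Stim D10 replicate 1 or 3 (-6.38 to -3.55).

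Of 4 tested ventricular genes, MYL3 and IRX3 fell at day 2 and at day 10 and 0 changed at day 6. Medians were -2.45, -0.76 and -1.64, and 3.14%, 1.76% and 6.23% of all genes were called lower at days 2, 6 and 10. MYL3, a ventricular myosin light chain, averaged 30330 ± 23740 FPKM at day 0, 2793 ± 2680 FPKM at day 2 and 23.6 ± 18.4 FPKM at day 10 (-3.62 ± 0.89 and -10.36 ± 0.80, limma adjusted p = 0.02553 and 5.418e-06), and the day 2 call ended without Stim D2 replicate 2 (-4.81 to -2.42). Of 5 tested atrial genes, 0 passed at days 2 and 6 in the main fit. At day 10 NR2F1 rose while KCNJ5 and MYL4 fell. Medians were -0.03, -0.04 and -1.30 at days 2, 6 and 10. Over all genes, 11.9% were called higher and 6.23% lower at day 10. KCNJ5 passed as lower at day 2 with median ratio scaling (-3.25, limma adjusted p = 0.005618) and quantile normalization (-3.04, limma adjusted p = 0.009601). MYL4 passed as lower at day 6 with quantile normalization (-2.73, limma adjusted p = 0.03289). The atrial potassium channel gene KCNJ5 averaged 0.0387 ± 0.0187 FPKM on day 10 and 26.3 ± 14.3 FPKM on day 0 (-4.53 ± 0.69, limma adjusted p = 0.0006664). The atrial myosin light chain gene MYL4 averaged 2.24 ± 1.93 FPKM on day 10 and 24.7 ± 18.3 FPKM on day 0 (-2.95 ± 0.71, limma adjusted p = 0.01289), with the call lost without Stim D10 replicate 1 (-3.40 to -2.40). NR2F1, an orphan receptor of atrial muscle, averaged 7.75 ± 2.46 FPKM on day 10 and 1.58 ± 0.325 FPKM on day 0 (1.73 ± 0.44, limma adjusted p = 0.01705), with the call lost without D0 replicate 3 or Stim D10 replicate 2 or 3 (1.59 to 1.99) and with median ratio scaling (1.19) or quantile normalization (1.28).

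Markers of other cell types in the slices also differed between days. Over all genes, 5.76%, 9.55% and 11.9% were called higher at days 2, 6 and 10, and 3.14%, 1.76% and 6.23% lower. In D0 replicate 2 the median marker stood at 20.8% of its day 0 mean for fibroblasts and 13.7% for endothelium. For smooth muscle and pericytes it stood at 21.0%. Counts without that library are not given for these lists. Of 7 tested fibroblast markers, 0 changed at days 2 and 6 and 2 rose at day 10 (POSTN by 4.49 ± 0.88 with limma adjusted p = 0.003833, COL1A2 by 2.56 ± 0.82 with limma adjusted p = 0.04727), and their summed level was 1946 to 8769 FPKM at day 10 and 366.9 to 1984 FPKM at day 0. The day 0 sum of 366.9 FPKM was that of D0 replicate 2, against 1984 and 1893 FPKM in D0 replicates 1 and 3. The COL1A2 call ended without D0 replicate 2 or 3, Stim D10 replicate 2 or 3 or any 1 Stim D6 library (1.80 to 3.32) and with median ratio scaling (1.84) or quantile normalization (1.92). Of 8 endothelial markers, 2 rose at day 2 (EGFL7 by 2.28 ± 0.61 with limma adjusted p = 0.03647, ERG by 2.94 ± 0.85 with limma adjusted p = 0.0479), 2 rose at day 6 (ERG by 2.70 ± 0.76 with limma adjusted p = 0.04023, PECAM1 by 3.02 ± 0.82 with limma adjusted p = 0.03686) and 0 changed at day 10. All 4 of these calls ended without Stim D6 replicate 2, and each also without 4 or more other libraries, with ranges from 1.66 to 3.81. After median ratio scaling EGFL7 at day 2 was at 1.49, PECAM1 at day 6 at 1.88 and ERG at day 6 at 2.00 (limma adjusted p = 0.3578, 0.1343 and 0.08496), so these calls ended. ERG passed as higher at day 10 with quantile normalization (1.74, limma adjusted p = 0.03445). Of 7 smooth muscle and pericyte markers, TAGLN fell at day 6 (-2.51 ± 0.64, limma adjusted p = 0.03064, with the call lost without D0 replicate 1 or 2 or Stim D6 replicate 1 or 3, -3.29 to -1.94) and rose at day 10 (3.63 ± 0.64, limma adjusted p = 0.002). The other 6 did not pass at day 10, and of these MYH11 (-1.12 ± 0.80) and NOTCH3 (-1.58 ± 0.89) lay below 0. The summed level of the 7 was 2284 to 3143 FPKM at day 10 and 184.8 to 416.8 FPKM at day 0. Of 6 macrophage and leukocyte markers CSF1R fell at day 10, and of 3 Schwann and neural markers 1 rose at day 10. TAGLN, MYH11, NOTCH3 and CSF1R were named after their values were seen. Neither of 2 epicardial markers passed, and 0 adipocyte markers passed the filter. The part of these cell types in the levels of IRX4, TBX5, RXRG and the lists above was not tested.

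The genes whose levels over the 11 libraries were most like each factor were listed by Pearson's r of log2(FPKM + 1) among 5609 to 5610 genes with a symbol and a mean of at least 5 FPKM. For IRX4 they were BCKDHA, CDK18 and CORO6 (r = 0.95 each), the myosin chaperone gene UNC45B (0.95) and the calmodulin kinase gene CAMK2A (0.94). The lowest were the lactate transporter gene SLC16A3 (-0.97) and the actin-capping gene CAPG (-0.93). CDK18 averaged 37.7 ± 19.3 FPKM at day 0, 3.32 ± 0.0692 at day 2, 14.5 ± 3.82 at day 6 and 0.912 ± 0.409 at day 10, with the same order of days as IRX4. For TBX5 they were the mitochondrial malate dehydrogenase gene MDH2, the potassium channel subunit gene KCNE1, UNC45B and KYAT1 (0.95 each) and MTARC2 (0.94), and the lowest were AGPAT4 (-0.98) and the pentose phosphate gene PGD (-0.97). UNC45B is on both lists, with 59.8 ± 22.3, 3.72 ± 1.56, 16.6 ± 5.81 and 1.35 ± 0.20 FPKM at days 0, 2, 6 and 10. For RXRG they were HAPLN3 (0.97), DAPL1 (0.96), the sarcoplasmic reticulum cation channel gene TMEM38A (0.96), the fat oxidation gene ECH1 (0.95) and the ketone body gene BDH1 (0.95), and the lowest were SSR3 (-0.98) and B4GALT7 (-0.97). DAPL1 averaged 68.7 ± 30.6 FPKM at day 0, 1.01 ± 0.338 at day 2, 4.39 ± 3.53 at day 6 and 0.0365 ± 0.0633 at day 10, low on all cultured days like RXRG. The libraries share days and D0 replicate 2, so high values of r are common and carry no test.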

How the data were processed

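RNA was extracted with Trizol and made into TruSeq libraries, per the labels. The authors deposited 1 FPKM value per gene and library. Bowtie 0.12.2 and the build name mm8 appear in the submitters' processing notes, with no role. For the counting tool, annotation release and strand setting, nothing is given in the sources used here. The name mm8 belongs to a mouse build while the identifiers are those of pig genes, so no coordinates are given.

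FPKM values step in whole reads, and 16073 of 16319 genes came out whole within 0.01 of a read (246 were at 0 everywhere). Members and list genes were matched by symbol (9686 genes have one). Genes with a mean of at least 1 FPKM (12625) were fitted as log2(FPKM + 1), with a pseudocount of 1, using limma 3.58.1 in R 4.3.3 (4 groups, eBayes with trend, 7 residual degrees of freedom, two-sided, Benjamini-Hochberg within a comparison at 0.05), after a test on simulated data. The simulated libraries all had the same spread and none stood apart, so that test does not cover D0 replicate 2 or Stim D2 replicate 1. Summaries used Python 3.11.15, pandas 2.3.3, numpy 2.4.6 and matplotlib 3.10.9.

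Members and lists were chosen with earlier results of these data known. The text names the 3 factors, a set panel of regulators, up to 3 called genes with the smallest p from each list with at least 2 calls, and the 5 most and 2 least like genes by Pearson's r. Alternatives were pseudocounts of 0.1 and 5, no filter and a mean of at least 5 FPKM, median ratio scaling, quantile normalization, the compared groups alone, a replicate block and each library left out. Leaving out both libraries with most genes at 0, and limma voom on recovered reads, were added after seeing the data. Where 1 Stim D2 library is left out, the other is assumed to vary like the other groups. A few list genes enter the counts and medians but are not reported here by name. Related genes can share reads, with handling not given.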

Additional observations from a re-analysis of the deposited data

Results flagged for a closer look

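For 15 of the 37 genes named by the panel or a list with calls, the effect at day 10 differed from that at day 6. Genes named for their likeness to a factor or after their values were seen were not counted. The test was of the difference itself (limma, day 10 against day 6, n = 3 libraries each). In this comparison 4.9% of all genes were called. Many of the 37 were named for calls at day 10 against day 0, with the same day 10 libraries, so the count supports nothing. Among regulators related to the 3 factors, the log2 difference was -2.75 ± 0.51 (SE) for IRX3 (limma adjusted p = 0.007349), -1.83 ± 0.43 for ESRRA (0.02846) and -7.01 ± 1.11 for ANKRD1 (0.002833). IRX3 averaged 0.839 ± 0.448 FPKM on day 10 and 11.2 ± 1.64 FPKM on day 6 (SD). The ESRRA call ended without any 1 Stim D6 or Stim D10 library (-1.97 to -1.59).

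Higher at day 10 than at day 6 were VDR at 2.32 ± 0.56 (limma adjusted p = 0.03261), CRABP2 at 3.32 ± 0.76 (0.02504), RBP4 at 1.72 ± 0.37 (0.01835) and the atrial receptor gene NR2F1 at 1.77 ± 0.44 (0.0371). Of the 11 tested RXR family and partner genes, 1 was called higher and 7 lay below 0 (median -0.36). VDR lost its call without Stim D10 replicate 2 or 3 or any 1 Stim D6 library (1.87 to 2.91), CRABP2 without Stim D6 replicate 1 or 3 or any 1 Stim D10 library (2.89 to 4.16), RBP4 without any 1 Stim D6 library (1.60 to 1.87), and NR2F1 without D0 replicate 1 or 3, Stim D10 replicate 2 or 3 or any 1 Stim D6 library (1.63 to 2.03).

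Muscle and chamber genes were lower at day 10 than at day 6, with log2 differences of -8.19 ± 0.80 for MYL3 (limma adjusted p = 0.0001093), -4.23 ± 0.69 for KCNJ5 (0.003336), -7.27 ± 0.46 for ACTN2 (3.325e-06), -7.55 ± 0.56 for ACTC1 (1.546e-05), -7.16 ± 0.63 for MYBPC3 (5.72e-05) and -10.05 ± 0.61 for MYH6 (3.165e-06), and all 6 calls held without each library. Matrix genes were higher, POSTN by 4.52 ± 0.88 (limma adjusted p = 0.01013; lost without Stim D6 replicate 2, range 4.07 to 4.80) and COL1A2 by 3.73 ± 0.82 (0.01993; lost without Stim D10 replicate 2 or 3 or any 1 Stim D6 library, range 2.99 to 4.48).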

How the results depend on the processing

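Groups hold 2 or 3 libraries, IRX4 rests on few reads at days 2 and 10, and D0 replicate 2 and Stim D2 replicate 1 stand apart, which limits every comparison with day 0 or day 2. The cause of each shift below was not tested. Of 42 calls among the 37 named genes other than the 3 factors, 15 held under all 21 alternatives. Log2 differences of the 3 factors kept their sign in all alternatives but 1: RXRG for day 6 against day 2 spanned -0.31 to 1.01 with each library left out. With a pseudocount of 0.1, IRX4 was at -4.87 (day 2 against day 0), -5.85 (day 10 against day 0), 4.35 (day 6 against day 2) and -5.34 (day 10 against day 6), TBX5 at -4.31 and RXRG at -6.30 (both day 10 against day 0). With a pseudocount of 5, IRX4 was at -1.47, -1.58, 1.14 and -1.25 in the same comparisons, TBX5 at -1.83 and -2.10 (days 2 and 10) and -0.79 (day 10 against day 6), and RXRG at -3.62, -3.29 and -3.77 (days 2, 6 and 10). With median ratio scaling, IRX4 was at -3.69, -1.51, -3.96 (days 2, 6 and 10) and -2.45 (day 10 against day 6), TBX5 at -3.49, -2.90 and -4.14, and RXRG at -5.25 (day 6). With quantile normalization, IRX4 was at -1.43 (day 6), 1.87 (day 6 against day 2) and -2.12 (day 10 against day 6), and TBX5 at -2.79 (day 6). With limma voom, IRX4 was at -6.09 and -6.97 (days 2 and 10), 5.59 and -6.47 (between cultured days), TBX5 at -4.42 (day 10) and -2.26 (day 10 against day 6), and RXRG at -6.50 (day 10). Without both libraries that stand apart, IRX4 was at -2.53 (day 2) and 1.92 (day 6 against day 2). With each library left out, IRX4 spanned -3.49 to -2.39 at day 2 and 1.92 to 3.03 for day 6 against day 2.

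Counts of called genes moved with these choices. At day 2 it was 1725 with quantile normalization and 17 with the compared groups alone. The day 2 calls of GATA6, IRX3, ESRRA, MYL3, ACTN2, ACTC1, MYBPC3, MYH6, CRABP2, EGFL7 and ERG all ended with the compared groups alone. At day 6 it was 942 with a pseudocount of 0.1, 864 with median ratio scaling, 536 with the compared groups alone and 778 with limma voom. At day 10 it was 1310 with the compared groups alone and 3449 without both libraries. For day 6 against day 2 it was 4 without both libraries, and for day 10 against day 6 it was 1130 with quantile normalization, 1903 with the compared groups alone and 2559 without both libraries. With each library left out, counts spanned 365 to 1762 (day 2), 117 to 1522 (day 6), 1462 to 2705 (day 10), 0 to 2 (day 6 against day 2) and 270 to 1553 (day 10 against day 6). Core cardiac transcription factor calls at day 2 were 1 with a pseudocount of 0.1, 1 with no filter, 5 with quantile normalization, and 0 with the compared groups alone or limma voom. At day 6 they were 2 with median ratio scaling, 4 with quantile normalization and 4 without both libraries, and at day 10 they were 9 with quantile normalization and 12 without both libraries. With each library left out they spanned 0 to 6 at day 2, 0 to 1 at day 6 and 2 to 8 at day 10.

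Whether same-numbered libraries pair could not be decided. Of 15 such pairs, 9 had a residual correlation above 0.1 (-0.552 to 0.469), and 5 of 11 libraries correlated best with their own number. Residuals were centred within groups of 2 or 3 libraries, so D0 replicate 2 and Stim D2 replicate 1 also shift the residuals of their group mates. Day 6 and day 10 libraries of the same number correlated at 0.28, 0.25 and 0.18 for replicates 1, 2 and 3. With a replicate block, core factor calls at day 2 were 0, and 11 of the named calls no longer passed (GATA6, IRX3, ESRRA, EGFL7 and ERG at day 2, ERG and PECAM1 at day 6, TBX2, RARA, NR1H3 and COL1A2 at day 10). Among the 42 calls against day 0 no other was lost under the block. For day 10 against day 6 the block called 504 genes, against 619 without it. Its outcome for single calls between cultured days, or for genes named after their values were seen, is not reported here.

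Signs that turned concern genes with no call in that comparison. Without both libraries that stand apart, GATA4 was at -0.26, MEF2A at -0.42 and MEF2C at -0.28 at day 6, MEF2A at -0.31, MEF2D at -0.25 and NR2F1 at 0.20 at day 2, and HEY2 at -0.71 at day 10. With limma voom, MEF2A was at 0.00 and RARB at 0.16 at day 10, and TBX20 at 0.18 and POSTN at 0.10 at day 6. With a pseudocount of 0.1 these 4 were at 0.03, 0.20, 0.21 and 0.13, and with a pseudocount of 5 MEF2A was at -0.12 and MEF2D at -0.02 at day 2. With median ratio scaling, day 2 values were -0.47 (MEF2A), -0.02 (MEF2C), -0.69 (MEF2D) and -0.27 (RXRB). Day 6 values were -0.79 (GATA4), -0.06 (MEF2A), -0.20 (MEF2D), -0.45 (TBX2), -0.64 (RXRB), -0.43 (ANKRD1) and -0.64 (NR1H3), and day 10 values were -0.60 (RXRB), -0.35 (HEY2) and -0.40 (EGFL7). With quantile normalization, day 2 values were -0.59 (MEF2A), -0.14 (MEF2C) and -0.61 (MEF2D). Day 6 values were -0.55 (GATA4), -0.28 (MEF2A), 0.00 (MEF2D), -0.50 (TBX2), -0.05 (RXRB), -0.18 (NR1H3) and -0.20 (RBP4), and day 10 values were -0.27 (RXRB) and -0.46 (HEY2). With each library left out, ranges that crossed 0 were, at day 2, MEF2A -1.15 to 0.93, MEF2C -0.91 to 1.80, MEF2D -0.73 to 0.59, ANKRD1 -1.81 to 1.06, RARRES1 -0.66 to 2.55, NR2F1 -0.32 to 0.26, POSTN -0.22 to 1.93 and COL1A2 -2.15 to 0.06. At day 6 they were GATA4 -0.26 to 0.75, MEF2A -0.42 to 1.48, MEF2C -0.28 to 1.95, TBX20 -1.79 to 0.53, RYR2 -2.30 to 0.53, KCNJ5 -1.07 to 0.21, NR2F1 -0.10 to 0.06 and POSTN -1.27 to 0.88. At day 10 they were GATA4 -1.18 to 0.15, MEF2A -1.41 to 0.49, MEF2C -1.91 to 0.32, RXRB -0.01 to 0.28, RARB -0.90 to 0.56, HEY2 -0.71 to 0.90 and EGFL7 -0.06 to 0.73.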

Other observations

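Genes next to the 3 factors along the chromosome, taken by their order in RefSeq's pig assembly and not by their values, did not all follow them. RBM19, the gene after TBX5, averaged 3.24 ± 0.758 FPKM at day 0, 26.8 ± 5.41 at day 2, 20.4 ± 3.17 at day 6 and 9.79 ± 3.33 at day 10 (SD). It rose by 2.71 ± 0.49 at day 2 (limma adjusted p = 0.006439) and 2.34 ± 0.44 at day 6 (limma adjusted p = 0.00995), calls that ended without Stim D2 replicate 1 (range 2.51 to 2.91) and without Stim D6 replicate 1 (range 2.19 to 2.45). MGST3, the gene before RXRG and a microsomal glutathione transferase, averaged 347.8 ± 204.5 FPKM at day 0, 52.5 ± 15.4 at day 2, 90.3 ± 45.8 at day 6 and 69.0 ± 28.5 at day 10. It fell at all 3 days, with a log2 fold change of -2.25 ± 0.53 at day 10 (limma adjusted p = 0.01077). The day 2 call ended without either Stim D2 library (-2.88 to -2.14), and the day 6 call without D0 replicate 2 or 3, Stim D6 replicate 1 or 3 or Stim D10 replicate 1 or 2 (-2.28 to -1.45). NDUFS6, a complex I gene after IRX4, averaged 125.9 ± 44.9 FPKM on day 10 and 519.6 ± 306.1 FPKM on day 0 (-1.96 ± 0.52, limma adjusted p = 0.02116; lost without Stim D10 replicate 3, range -2.20 to -1.51). Of the other nearest genes with a row, TBX3, before TBX5, did not pass at any of the 3 days (limma adjusted p of at least 0.2976). ADAMTS16, before IRX4, and LMX1A, after RXRG, did not pass the filter on low values. Whether a neighbour and its factor differ in their changes was not tested.

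Between day 10 and day 6, the retinaldehyde dehydrogenase gene ALDH1A1 (19.5 ± 3.81 FPKM at day 10, 0.624 ± 0.636 FPKM at day 6) also rose, with a limma adjusted p of 0.01914. It was named after its values were seen. ALDH1A1 lost its call without Stim D6 replicate 1 or 3 or any 1 Stim D10 library (3.55 to 4.01).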
